A study of Mus musculus with 6 samples.

Results

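The genes described here are those of cholesterol and fatty acid synthesis and of their control by the SREBP transcription factors, measured in mouse megakaryocytes, the marrow and liver cells that release platelets. They were chosen by name, as a fixed list of 33 genes, with earlier results of these data known. Every probe set whose platform annotation names only 1 of them was taken. The annotation gave 74 such probe sets for 32 of the 33 genes, out of 18193 genes with a probe set on the array. Acat2, the cytosolic thiolase that opens the pathway, had none here, and 1 further probe set was left out because it names Acss2 together with another gene. The list does not hold every enzyme of these pathways. The 6 arrays were 3 of a Gata-1 knock down, called A, B and C, and 3 of the wild type, also A, B and C, each from progenitors of mouse fetal liver of embryonic day 13.5 that were cultured into megakaryocytes and purified on a gradient of bovine serum albumin (BSA). The labels do not state how Gata-1 was lowered, the mouse strain, or whether the samples of a group came from separate animals or cultures, so the p-values speak only of the scatter among these 6 samples, part or all of which may be technical.

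Cells make cholesterol from acetyl-CoA through mevalonate and squalene, and make fatty acids from the same precursor through malonyl-CoA. The membrane-bound factors SREBP1 and SREBP2, encoded by Srebf1 and Srebf2, switch these genes on. SCAP carries them from the endoplasmic reticulum to the Golgi for cleavage when sterols are scarce, and the INSIG proteins hold SCAP back when sterols are plentiful. SREBP2 acts mainly on cholesterol genes and SREBP1 mainly on fatty acid genes, and Insig1 is itself a target. Megakaryocytes build an extensive internal membrane system from which platelets are formed.

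The labels were checked on Gata1, whose probe set read 153.5, 143.3 and 194.7 in knockdown A, B and C and 8723.7, 8246.5 and 8495.6 in wild type. Knockdown B had the highest array median, 137.8 against 101.6 to 118.4 on the others, and the highest background, 132 against 60.7 to 82.2, where background is the brightest of 27 bacterial control probe sets that serve as blanks. Of 10 megakaryocyte markers on the array none lay within background. In knockdown 8 of them were lower, where 17.1% of all genes tested were lower, while Itga2b and Pf4 were not called. The summed signals of the 10 markers were 102836 to 127289 in knockdown and 142615 to 152991 in wild type. The number of arrays limits the precision.

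Cholesterol synthesis genes were lower in knockdown along nearly the whole pathway. Of 17 tested, 15 fell, none rose, and Msmo1 and Hsd17b7 did not pass the test, with a median log2 fold change of -0.47 against 0.03 for all 14230 genes tested. Fatty acid synthesis genes had no common direction: of 10 tested, Me1, Scd1 and Acss2 fell and Fasn, Acaca and Fads2 rose, and the median was 0.02. Among 5 regulators, Insig1 fell, Srebf1 and Scap rose, and Srebf2 and Insig2 did not pass. In all, 19 of 32 genes were lower and 5 higher (limma on log2 signals, Benjamini-Hochberg adjusted p of at most 0.05 over all probe sets tested), where 17.1% of all genes tested were lower and 18.3% were higher. The split of all calls depended on scaling, with 51.7% of called genes higher here and 28.7% with arrays centred on their medians, a choice that moves the median of all genes by -0.11 and under which 2 of these genes rose and 23 fell.

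**Figure D1:**
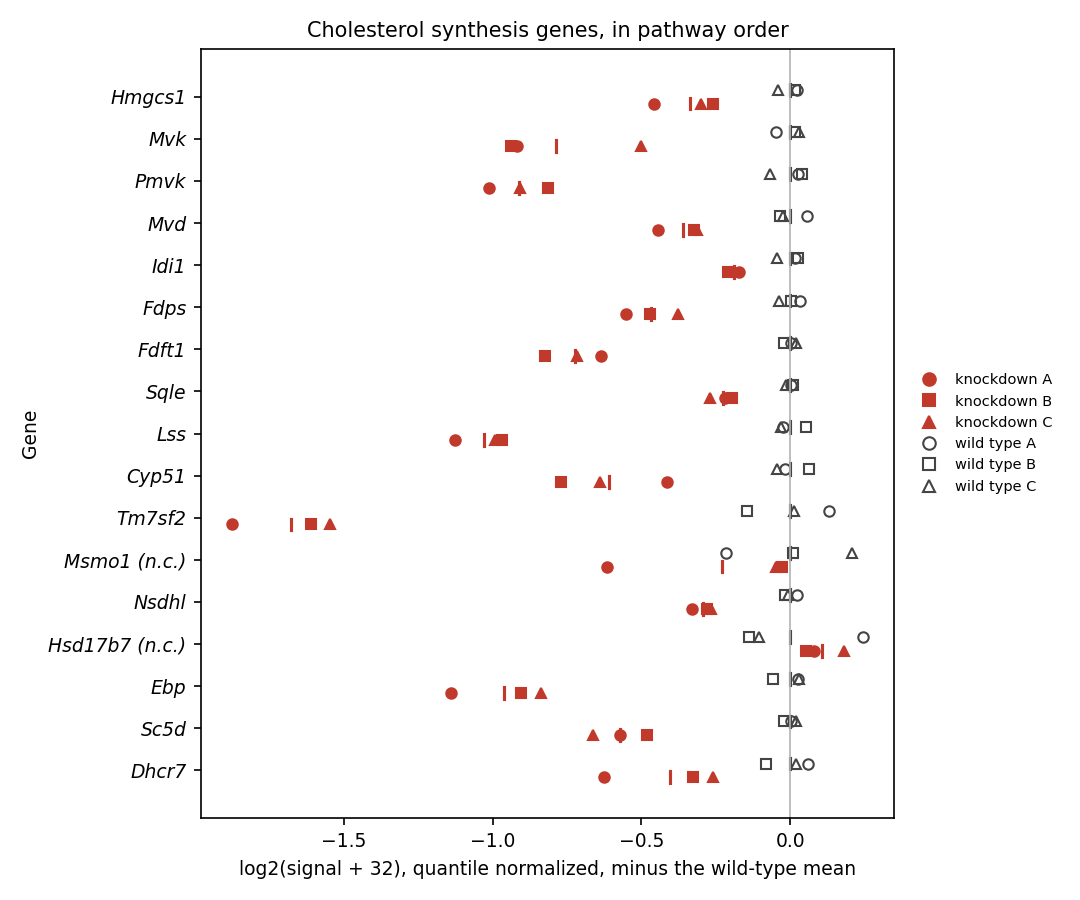
Log2 signal of the 17 cholesterol synthesis genes on each of the 6 arrays, as the difference from the gene's wild-type mean, in pathway order from top to bottom. Filled points are knockdown, open points are wild type, vertical ticks are group means, and n.c. marks a gene not called. The 15 genes without this mark were called lower, where 17.1% of all genes tested were called lower.

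Promoter sequences of RefSeq (GRCm38.p6) were set beside these changes because most cholesterol genes moved the same way. The table used held 36 windows of 300 bases, from 250 before to 50 after a transcript start, for 27 of the 33 genes; Fdps, Fdft1, Sqle, Scd1, Scd2 and Fads1 are not among them. The 18 windows of cholesterol genes are not those of the 15 that fell, since they include Acat2, Msmo1 and Hsd17b7. The NF-Y box (CCAAT, read on both strands) was found in 14 of the 18 windows of cholesterol genes, or 77.8%, against 37.4% of 32851 promoter windows. The Sp1 box (GGGCGG) was found in 15 of those 18, or 83.3%, against 35.7%. Windows of the other groups, which had no common direction, also held both boxes: NF-Y boxes were in 4 of 8 fatty acid and 5 of 10 regulator windows, and Sp1 boxes in 4 of 8 and 8 of 10. The median GC content was 60.8% in the 18 windows and 52.7% over all promoters, and its part in these shares was not tested. A sterol regulatory element spelled TCACNCCAC was found in 1 of the 18, that of Hmgcs1, and in 1.24% of all promoters. A GATA motif (AGATAA or AGATAG or TGATAA or TGATAG) was found in 3 of the 18 windows, those of Hsd17b7 and of overlapping windows of Dhcr7, and in 29.8% of all promoters. The E-box CACGTG was found in 3 of the 18, against 7.15%. Each match describes letters only and is not a shown binding site.

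The 150 bases just before the start are given for the genes that fell by at least 2-fold and have a window (Lss, Tm7sf2, Insig1 and Me1), for Hmgcs1, which holds the sterol element, and for Fasn and Fads2, which rose. They read 5′ to 3′ on the gene's own strand, and capitals mark matches to these motifs on either strand.
Hmgcs1, chr13:119690201-119690350, plus strand: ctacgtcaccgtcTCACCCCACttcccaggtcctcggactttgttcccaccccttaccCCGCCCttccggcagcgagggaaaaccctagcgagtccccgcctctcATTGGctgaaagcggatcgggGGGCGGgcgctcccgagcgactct
Lss, chr10:76531455-76531604, plus strand: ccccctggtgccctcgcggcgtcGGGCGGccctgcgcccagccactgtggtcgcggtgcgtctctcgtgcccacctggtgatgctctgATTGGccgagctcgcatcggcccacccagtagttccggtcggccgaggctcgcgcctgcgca
Tm7sf2, chr19:6067851-6068000, minus strand: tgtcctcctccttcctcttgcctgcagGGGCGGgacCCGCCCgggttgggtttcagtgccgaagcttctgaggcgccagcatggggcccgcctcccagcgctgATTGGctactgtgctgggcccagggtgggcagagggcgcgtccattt
Insig1, chr5:28071262-28071411, plus strand: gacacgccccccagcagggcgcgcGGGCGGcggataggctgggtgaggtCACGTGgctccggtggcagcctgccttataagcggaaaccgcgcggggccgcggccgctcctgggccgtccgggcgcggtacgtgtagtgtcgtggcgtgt
Me1, chr9:86695915-86696064, minus strand: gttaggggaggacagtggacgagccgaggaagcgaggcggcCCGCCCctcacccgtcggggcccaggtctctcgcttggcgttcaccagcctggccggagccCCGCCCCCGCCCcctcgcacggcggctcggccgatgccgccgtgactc
Me1 (another start), chr9:86687278-86687427, minus strand: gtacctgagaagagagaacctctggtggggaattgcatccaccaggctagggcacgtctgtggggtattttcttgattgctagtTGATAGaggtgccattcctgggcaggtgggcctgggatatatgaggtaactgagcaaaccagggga
Fasn, chr11:120824548-120824697, minus strand: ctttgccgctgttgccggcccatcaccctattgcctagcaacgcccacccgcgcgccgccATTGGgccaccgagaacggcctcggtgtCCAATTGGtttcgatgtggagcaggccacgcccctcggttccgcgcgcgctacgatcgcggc
Fads2, chr19:10101504-10101653, minus strand: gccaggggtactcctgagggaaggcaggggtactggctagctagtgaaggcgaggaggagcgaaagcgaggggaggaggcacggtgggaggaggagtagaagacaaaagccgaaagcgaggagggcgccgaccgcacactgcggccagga
The sterol element of Hmgcs1 starts 137 bases before the transcript start, and NF-Y boxes start at 45, 62 and 47 bases before it in Hmgcs1, Lss and Tm7sf2. In Insig1 the capitals are an Sp1 box and an E-box. The first window of Me1 shows only Sp1 boxes and the other start of Me1 a GATA motif. In Fasn the capitals are NF-Y boxes, of which a pair overlaps. The stretch of Fads2 holds none of these motifs.

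**Figure D2:**
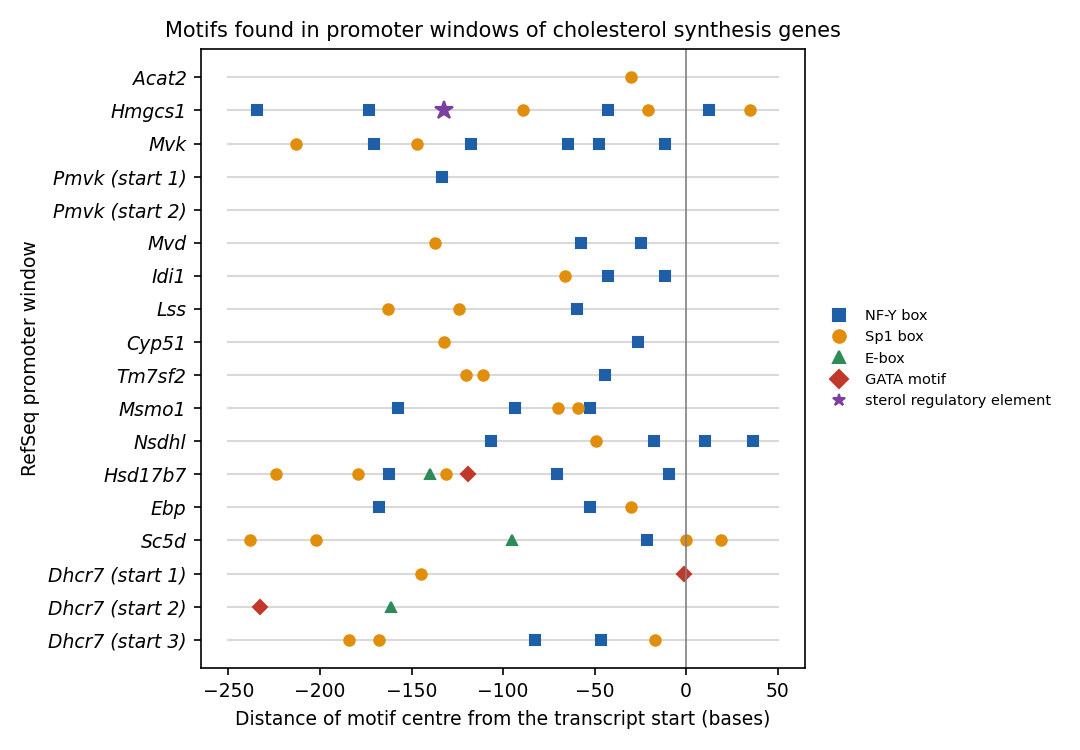
Positions of motif matches in the 18 RefSeq promoter windows of cholesterol synthesis genes, each grey line being 1 window from 250 bases before to 50 bases after a transcript start. Squares are NF-Y boxes, circles Sp1 boxes, triangles E-boxes, diamonds GATA motifs and the star a sterol regulatory element; 14 windows hold a square and 1 holds the star.

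The mevalonate arm, which turns acetyl-CoA units into the isoprenoid farnesyl diphosphate, was lower at each of its 6 genes tested. Of all genes tested, 17.1% were lower. Hmgcs1, which makes HMG-CoA, read 8183.3, 9808.5 and 9575.0 in knockdown A, B and C and 11914.1, 11429.7 and 11527.2 in wild type A, B and C with its brightest probe set. The groups did not overlap, and the log2 fold change was -0.34 ± 0.06 (SE; limma adjusted p 0.00102). All 4 tested probe sets of Hmgcs1 were lower, and the other three gave -0.50, -0.44 and -0.60. Mvk, the kinase of mevalonate, read 400.5, 397.4 and 538.2 against 718.1, 753.5 and 752.5, and its pair of probe sets gave -0.79 ± 0.13 and -0.68 ± 0.10 (adjusted p 0.0010 and 5.07e-04). Pmvk, which adds the next phosphate, read 518.3, 584.5 and 550.0 against 1049.5, 1062.6 and 972.6. That was 1.88-fold lower, at -0.91 ± 0.09 (adjusted p 3.66e-05), the largest fall of these 6.

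The 3 later steps of that arm fell as well. Mvd, the decarboxylase, read 2183.9, 2299.4 and 2361.3 against 3160.7, 2976.2 and 3024.7, with no overlap (-0.36 ± 0.06, adjusted p 0.00147). Its dimmer probe set gave -0.04 ± 0.09 and was not called (adjusted p 0.801), and the mean of both was -0.20 (adjusted p 0.0597). Idi1, the isomerase that yields the active isoprene unit, read 10278.1, 10755.5 and 11014.9 against 12375.3, 11940.8 and 11932.7. Its change of -0.19 ± 0.04 (adjusted p 0.00496) was the smallest among the cholesterol genes that fell, and its other probe set gave -0.46 ± 0.11. Fdps, the farnesyl diphosphate synthase, read 6957.4, 7388.1 and 8015.1 against 10774.8, 10296.4 and 10494.8 (-0.47 ± 0.05, adjusted p 8.07e-05). A second Fdps probe set lay within background on all arrays and was not tested.

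From squalene onward, 9 of 11 genes fell, where 17.1% of all genes tested were lower. Fdft1, which joins farnesyl units into squalene and so commits carbon to sterols, read 2358.2, 2009.5 and 2224.8 in knockdown and 3814.4, 3731.9 and 3870.9 in wild type. The groups were far apart (-0.72 ± 0.06, adjusted p 1.42e-05), and a second probe set gave -0.78 ± 0.07. Sqle, the epoxidase that follows, was lower by little: 5020.8, 5087.3 and 4888.9 against 6242.5, 6250.7 and 6264.9 (-0.23 ± 0.05, adjusted p 0.00388). Its 3 wild-type arrays had an SD of 11.3 around their mean of 6253. Lss, the cyclase that forms lanosterol, the first sterol, read 1251.9, 1348.0 and 1352.5 against 2737.8, 2864.9 and 2713.8. This was 2.04-fold lower (-1.03 ± 0.07, adjusted p 2.28e-06), but the other two probe sets of Lss, both dimmer, gave -0.24 ± 0.13 and -0.03 ± 0.18 and were not called.

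The enzymes that trim and rearrange lanosterol held the largest fall. Cyp51, the lanosterol demethylase, read 2886.1, 2192.8 and 2441.6 against 3979.0, 4142.9 and 3881.9 (-0.61 ± 0.09, adjusted p 3.80e-04), and 2 of its 3 probe sets were called. Tm7sf2, a sterol reductase acting just after it, read 489.8, 581.3 and 607.6 against 2013.8, 1643.6 and 1851.0. It was 3.20-fold lower (-1.68 ± 0.11, adjusted p 1.93e-06), with a single probe set on the array. Ebp, the sterol isomerase, was also far lower, at 1539.7, 1743.1 and 1860.1 against 3546.3, 3325.6 and 3550.6 (1.95-fold, -0.96 ± 0.08, adjusted p 1.27e-05).

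With their brightest probe sets, the remaining sterol enzymes changed by less than 1.5-fold or did not pass. Nsdhl, a dehydrogenase of the demethylation complex, read 2919.0, 2928.2 and 3033.1 against 3894.5, 3746.8 and 3790.7 (-0.29 ± 0.05, adjusted p 0.00173). Sc5d, the sterol desaturase, read 1595.6, 1653.5 and 1493.7 against 2429.2, 2370.9 and 2457.9 (-0.57 ± 0.07, adjusted p 1.17e-04). Of its dimmer probe sets, one was 1.52-fold lower (-0.61 ± 0.15, adjusted p 0.0121) and one was not called (-0.36 ± 0.14, adjusted p 0.0875). Dhcr7, a reductase that ends the pathway, read 1631.3, 1941.9 and 2096.0 against 2716.5, 2433.7 and 2634.7 (-0.40 ± 0.10, adjusted p 0.00878). In these 3 genes no knockdown array reached a wild-type array.

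Msmo1, the methyl sterol oxidase, overlapped between groups, at 5810.1, 9132.3 and 8919.2 against 8164.6, 9317.0 and 10909.8. Its log2 fold change of -0.23 ± 0.15 was not called (adjusted p 0.303), and it was -0.46 after median centring of arrays (adjusted p 0.0307) and -0.04 without knockdown A (adjusted p 0.816). Hsd17b7, the ketosteroid reductase of the same complex, read 1063.2, 1014.1 and 1119.2 against 1171.1, 879.4 and 891.9 (0.11 ± 0.11, adjusted p 0.534), a value that was -0.07 with arrays centred on their medians. Of the 4 tested probe sets of Hsd17b7, 1 was higher, at 0.27 ± 0.08 (adjusted p 0.0251). It was the only cholesterol gene probe set called higher among 34 tested, of which 23 were lower. Of all probe sets tested, 30.4% were called either way.

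All 3 knockdown arrays showed the lower levels. The median of the 17 genes, each taken as the difference from its wild-type mean, was -0.57, -0.47 and -0.38 in knockdown A, B and C and between -0.01 and 0.02 in wild type. For all genes tested it was 0.02, 0.05 and 0.04 in knockdown. Knockdown A, with the lowest median, was also lowest in Tm7sf2, Lss, Ebp, Pmvk and Dhcr7, while knockdown B was lowest in Fdft1 and Cyp51. Without knockdown B, the array that stood apart, 15 of 17 were again lower, beside 2457 of all 14248 genes tested.

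Most tested markers of macrophages, neutrophils and mast cells were lower too, where 17.1% of all genes tested were lower. So were 8 of 10 megakaryocyte markers, with a median log2 fold change of -0.51. Red cell markers were mixed, and those of hepatocytes and of fibroblasts and adipocytes were mostly not called. Of 9 tested macrophage markers 9 were lower, and the summed signal of the 12 on the array was 9256 to 9466 in knockdown and 24447 to 25214 in wild type. Of 9 neutrophil markers 8 were lower, with sums of 2999 to 3101 and 11008 to 11387. Of 8 mast cell markers 6 were lower, with sums of 1090.0 to 1280 and 3984 to 4569. Of 8 red cell markers 4 were lower, 1 higher and 3 not called, with sums of 7727 to 7987 and 21897 to 22187. Among the red cell markers, Hbb-y alone read 1225.9, 1078.5 and 1072.0 in knockdown and 9560.0, 9730.0 and 9952.5 in wild type. Hepatocytes make much cholesterol, and 2 of 6 tested hepatocyte markers, Afp and Rbp4, were lower and 4 were not called. The sums over 10 markers were 882 to 1057 and 1485 to 1734. Of these, Afp alone read 469.4, 265.6 and 374.5 in knockdown and 881.6, 944.1 and 912.3 in wild type. Apoa1, Fgb and Fgg lay within background on all 6 arrays. Of 7 fibroblast and adipocyte markers 1, Fabp4, was lower and 6 were not called, with sums over 8 markers of 1519 to 1958 and 2251 to 2426. Fabp4 alone read 784.7, 980.8 and 798.0 in knockdown and 1582.9, 1663.8 and 1656.7 in wild type. No marker was listed at 0, the part of these cells in the results was not tested, and fewer cells of a type cannot be told apart from less RNA per cell.

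Of the fatty acid genes that supply acetyl-CoA, Acss2 was lower and Acly did not pass the test. Acly, the citrate lyase that supplies cytosolic acetyl-CoA, read 4598.1, 5360.3 and 5373.9 in knockdown and 5651.1, 5274.5 and 5213.0 in wild type, overlapping (0.01 ± 0.07, adjusted p 0.943). With centring Acly was at -0.27 (adjusted p 0.0376). A dim Acly probe set within background in knockdown was called at least 1.33-fold lower. Acss2, which makes acetyl-CoA from acetate, read 1548.4, 1388.7 and 1472.7 against 1729.6, 1742.4 and 1934.6, with no overlap (-0.27 ± 0.07, adjusted p 0.0174). A second Acss2 probe set gave -0.55 ± 0.10 and a dimmer one rose by 0.79 ± 0.20 (adjusted p 0.0124), so the probe sets of Acss2 were called in opposite directions. The call of its brightest set was lost without wild type C (adjusted p 0.11), and the mean of the 3 sets was -0.01.

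Me1, the cytosolic malic enzyme that supplies NADPH, had the largest fall of the fatty acid genes. It read 571.0, 501.4 and 494.1 in knockdown against 1653.4, 1707.0 and 1580.2 in wild type. That was 3.10-fold lower (-1.63 ± 0.09, adjusted p 4.28e-07), and its other probe set gave -1.65 ± 0.12. Scd1, the desaturase that makes monounsaturated fatty acids, read 1130.0, 1139.8 and 1125.0 against 2681.1, 2915.0 and 2816.3. It was 2.39-fold lower (-1.25 ± 0.07, adjusted p 4.28e-07), its other probe set gave -1.25 ± 0.22, and the 3 knockdown arrays had an SD of 7.53 around their mean of 1132.

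Scd2, a desaturase of the same step, was not called with its brightest probe set. That set read 13101.3, 12539.3 and 12643.1 in knockdown and 11905.3, 12252.7 and 12808.1 in wild type (0.03 ± 0.06, adjusted p 0.748), which was -0.14 with arrays centred on their medians. The other two Scd2 probe sets gave 0.12 ± 0.04 (adjusted p 0.0575) and 0.55 ± 0.05 (adjusted p 3.26e-05). The mean of the 3 sets was called higher, at 0.24 (adjusted p 0.00119). Whether Scd1 and Scd2 differed in their change was not tested.

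The enzymes that build the chain, Acaca and Fasn, were higher. Acaca, the carboxylase that makes malonyl-CoA, read 1499.8, 1935.3 and 1696.6 against 1257.8, 1334.6 and 1288.9 (0.40 ± 0.10, adjusted p 0.0137), while its dimmer probe set gave 0.10 ± 0.20. Fasn, the fatty acid synthase, read 4584.3, 4523.5 and 4032.9 against 3626.9, 3725.0 and 3659.4 (0.33 ± 0.06, adjusted p 0.00285). Neither gene overlapped between groups, but with median centring each gene was nearer 0, at 0.19 and 0.06, and not called (adjusted p 0.171 and 0.731), and Acaca was not called without wild type A (adjusted p 0.0558) or as the mean of its probe sets (0.25, adjusted p 0.0681). Elovl6, which lengthens the product of Fasn, read 2370.0, 2479.3 and 2362.0 against 2596.1, 2513.5 and 2571.5. It was not called (-0.03 ± 0.06, adjusted p 0.740), nor were its other two probe sets, and centring gave -0.29 (adjusted p 0.0371).

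The desaturases of polyunsaturated fatty acids were higher or not called. Fads2 read 5831.5, 7348.7 and 6656.3 against 4541.2, 4548.4 and 4365.6, which was 1.55-fold higher (0.63 ± 0.07, adjusted p 1.09e-04). A second Fads2 probe set rose by 0.33 ± 0.05 and the dimmest gave -0.06 ± 0.15. Fads1 read 4689.9, 3967.5 and 3995.2 against 4254.3, 3942.6 and 4541.7, with overlap (0.07 ± 0.08, adjusted p 0.579), a value that was -0.01 as deposited and -0.21 with arrays centred on their medians. The mean of both Fads1 probe sets was called higher, at 0.43 (adjusted p 0.00121). By itself the dimmer probe set rose from 261 ± 41.0 to 510 ± 50.9 (SD, n = 3; 0.79 ± 0.14, adjusted p 0.00174).

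**Figure D3:**
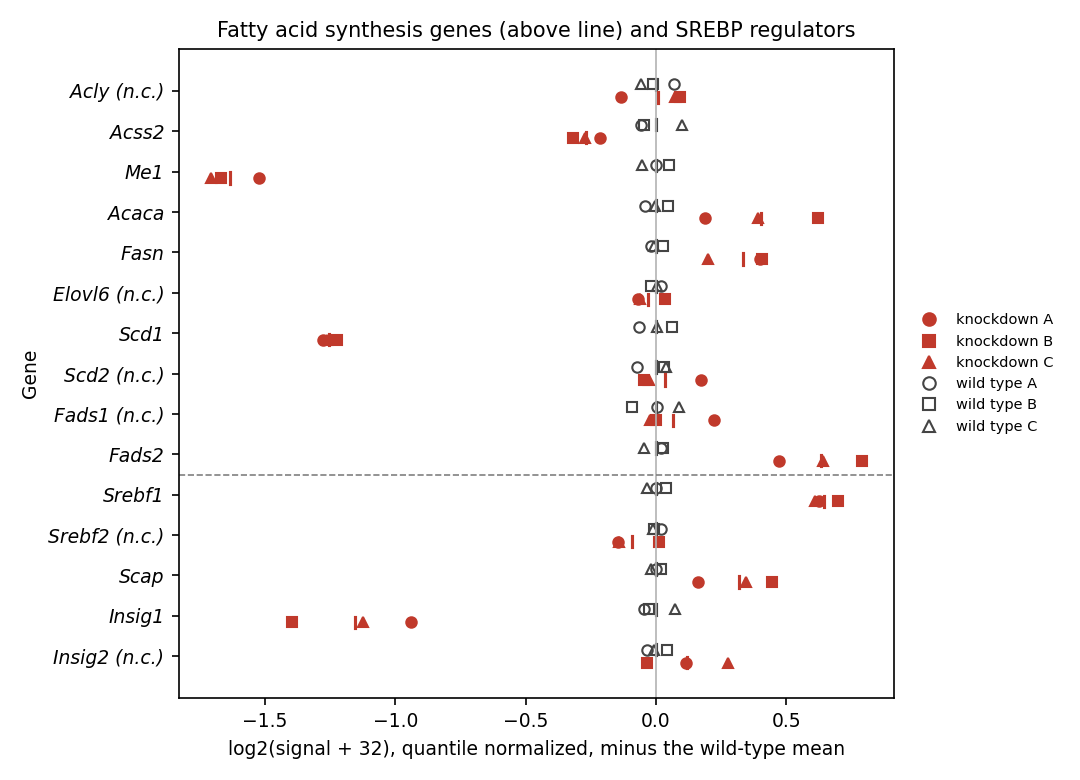
Log2 signal of 10 fatty acid synthesis genes, above the dashed line, and 5 SREBP regulators, below it, on each of the 6 arrays, as the difference from the gene's wild-type mean. Filled points are knockdown, open points wild type and vertical ticks group means; Me1, Scd1 and Insig1 lie farthest to the left, and Fads2 and Srebf1 farthest to the right by their means.

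The regulators of the pathway split. Insig1, which retains the SREBP escort, read 751.2, 530.9 and 647.0 in knockdown against 1384.0, 1401.8 and 1494.4 in wild type, 2.22-fold lower (-1.15 ± 0.11, adjusted p 3.43e-05). Its relative Insig2 read 1123.3, 985.2 and 1234.9 against 981.2, 1037.3 and 993.9 and was not called with any of its 3 probe sets (brightest 0.12 ± 0.09, adjusted p 0.390, and -0.05 with arrays centred on their medians). Srebf1 read 2726.0, 2757.4 and 2669.3 against 1784.2, 1842.1 and 1746.0, with no overlap. It was 1.56-fold higher (0.64 ± 0.06, adjusted p 2.28e-05) and stayed called in each alternative tried, but its 1 probe set does not tell its isoforms apart here.

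Srebf2, the factor of the cholesterol genes, read 2691.8, 2886.4 and 2659.7 in knockdown and 3092.1, 3046.6 and 3051.2 in wild type. All 3 knockdown signals were lower as deposited, but the groups overlapped after normalization (-0.09 ± 0.06, adjusted p 0.311), and it was called lower, at -0.35, after median centring of arrays (adjusted p 0.00988). Its second probe set gave -0.02 ± 0.10. Scap read 1685.0, 1988.7 and 1897.0 against 1510.7, 1530.4 and 1481.3 (0.32 ± 0.08, adjusted p 0.0135). Its call was lost without wild type C (adjusted p 0.0597) and after median centring, at 0.10 (adjusted p 0.509). The mean of its probe sets, one of them within background, was 0.26 and not called (adjusted p 0.275).

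Of 67 tested probe sets, 31 were lower, 10 higher and 26 not called, where 30.4% of all 31526 probe sets tested were called either way. Of the 21 genes with several tested probe sets, 6 had all of them called alike (Hmgcs1, Mvk, Idi1, Fdft1, Me1 and Scd1), and 1, Acss2, had calls in both directions. The 7 probe sets left out as dim read at most 103.3 on any array, and all 32 genes kept at least 1 tested set.

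**Figure D4:**
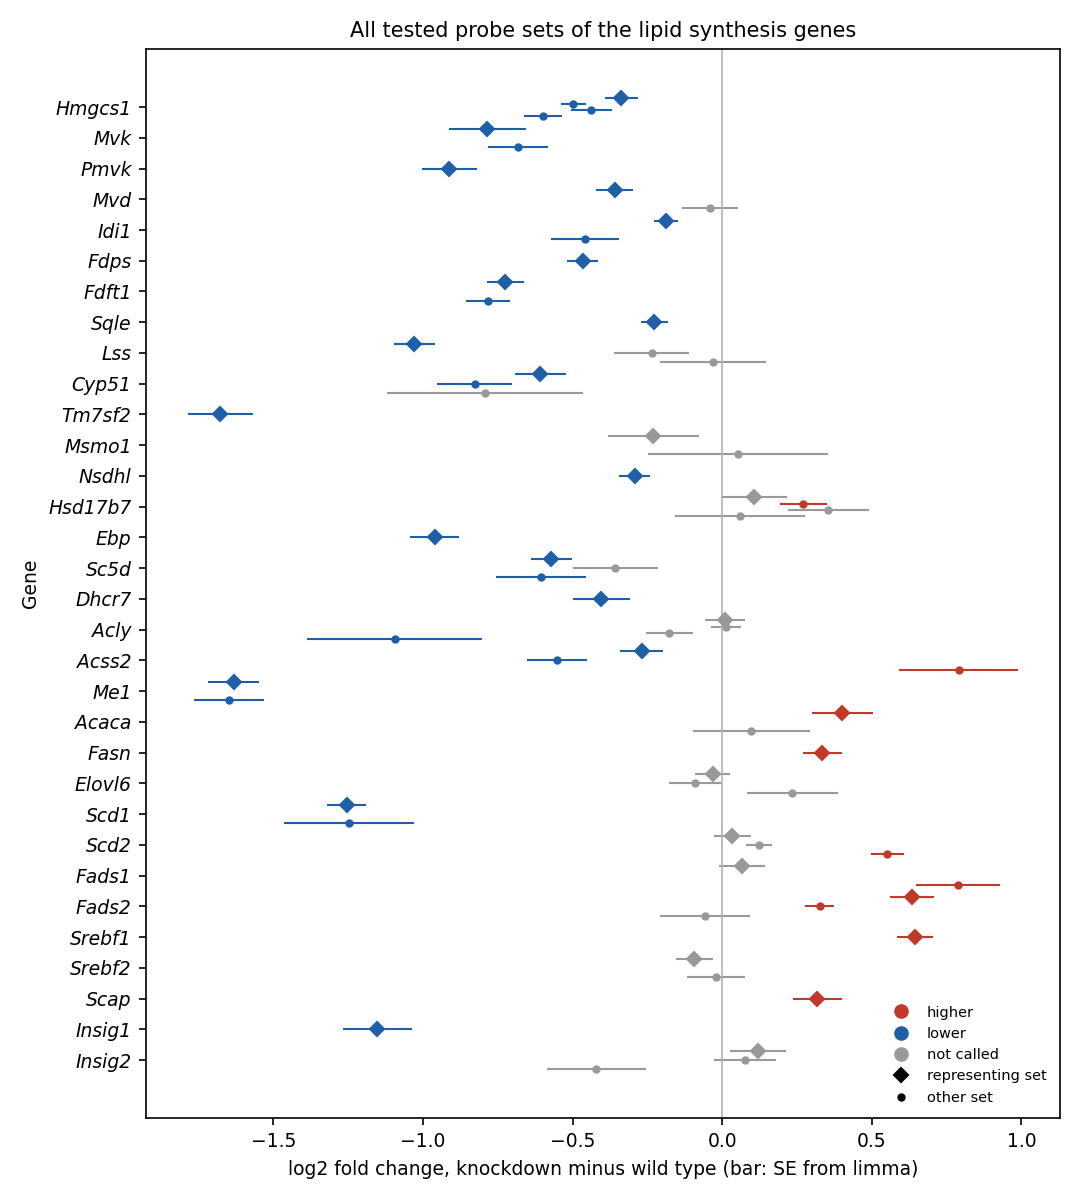
Log2 fold change, knockdown minus wild type, of the 67 tested probe sets, grouped by gene, with bars of 1 SE from limma. Diamonds are the brightest probe set of a gene and circles the others, coloured by call; Acss2 is the 1 gene with both blue (lower) and red (higher) points.

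Neighbouring pathways were taken from lists that hold none of these genes. Their counts stand beside 18.3% of all genes tested that were higher and 17.1% that were lower. In the isoprenoid branch, which uses farnesyl diphosphate for protein prenylation and ubiquinone, 5 of 14 genes rose and 2 fell (median 0.25). The prenyltransferase subunit genes Rabggta and Pggt1b changed by 0.53 ± 0.13 and -0.48 ± 0.07, and Trit1, of tRNA isopentenylation, by 0.52 ± 0.14. Among other elongases and desaturases 1 of 12 rose and 5 fell (median -0.09). The one that rose was Fads3, at 762.3, 762.4 and 765.2 against 181.2, 209.2 and 117.8 (1.90 ± 0.16, adjusted p 1.35e-05), while Hacd1, a dehydratase of chain lengthening, and Degs1, of ceramide synthesis, changed by -0.63 ± 0.06 and -0.59 ± 0.07. Of 19 genes for acyl-CoA and glycerolipid assembly, 6 rose and 5 fell (median 0.03). Gpam, Agpat2 and Lpin1, which act in successive steps toward diacylglycerol, rose by 0.89 ± 0.10, 0.79 ± 0.10 and 0.79 ± 0.15. Their relatives did not rise with them. Lpin2 and Agpat1 changed by -0.71 ± 0.07 and -0.34 ± 0.08, and Agpat3 and Agpat4 were not called. In wild type the mean signal was 2596 for Lpin2 and 277 for Lpin1, and 1160 for Agpat1 and 397 for Agpat2.

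Supply, sensing and oxidation genes had small medians too, and their counts stand beside the same shares of all genes, 18.3% higher and 17.1% lower. Of 11 genes for citrate, acetyl-CoA and NADPH supply 1 rose and 2 fell (median -0.09), namely citrate synthase Cs, at 0.17 ± 0.05, Idh1, the cytosolic NADPH-making dehydrogenase, at -1.03 ± 0.09, and the citrate carrier Slc25a1, at -0.29 ± 0.06. Of 20 genes for SREBP cleavage, sterol sensing and related control 1 rose and 5 fell (median -0.17). Those with the largest changes were the AMP kinase subunits Prkab1 and Prkaa2, at -1.20 ± 0.15 and -0.98 ± 0.11, and Syvn1, a ubiquitin ligase of the endoplasmic reticulum, at -0.49 ± 0.06. Of 22 beta oxidation genes 8 rose and 5 fell (median 0.06). Cpt2, the inner carnitine palmitoyltransferase, changed by -1.19 ± 0.07 and Decr1, which handles unsaturated fatty acids, by 0.77 ± 0.10, while the dim Ehhadh, within background in knockdown, was called at least 1.13-fold lower.

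**Figure D5:**
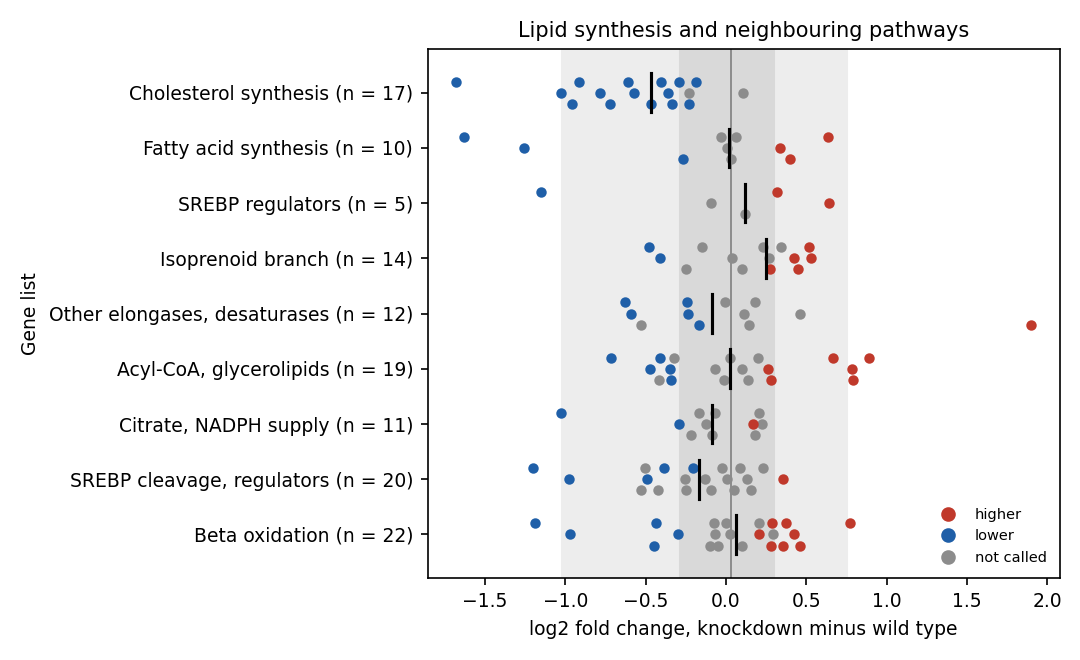
Log2 fold change, knockdown minus wild type, of each tested gene in the 3 groups of lipid synthesis genes and in 6 neighbouring lists. Points are genes coloured by call, black ticks are list medians, and the grey bands hold the middle 50% and 90% of all 14230 genes tested; cholesterol synthesis has the lowest median, -0.47.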

How the data were processed

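One deposited table held 45101 probe sets on 6 arrays, with intensity values that the authors had scaled, since the mean of each column, trimmed by 2% at each end, was 500.0. Neither the scanner software nor its settings were found, being not given in the sources used here. Groups came from sample titles. Signals were taken as log2(signal + 32), quantile normalized, which removes any shift common to all genes, and tested with limma 3.58.1 in R 4.3.3 (lmFit, eBayes with intensity trend, group only, two-sided, Benjamini-Hochberg over 31526 probe sets). The 64 control probe sets and those below the 30th percentile of the mean were left out. Values per array are deposited signals; fold changes are of normalized values with the offset, which understates changes of dim genes. Each gene was read from its brightest probe set, by mean normalized log2 value. Names follow the platform annotation, updated by gene number through a GRCm38.p6 table. Called means an adjusted p of at most 0.05.

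A signal was within background at or below the highest of 27 bacterial control probe sets of its array; a fold against a group at background on at least 2 arrays is a bound, written as at least. The genes described and the neighbouring lists were chosen with earlier results of these data known. Named from each neighbouring list are the 3 called genes with the largest change. Lpin2, Agpat1, Agpat3 and Agpat4 were added as relatives of Lpin1 and Agpat2. Other named markers were picked after their values were seen. Marker lists are for megakaryocytes, macrophages, neutrophils, mast cells, red cells, hepatocytes, and fibroblasts with adipocytes. The test was tried on simulated data. Alternatives were offsets 1 and 100, deposited scaling, median centring, no filter and a 50th percentile filter, the mean of a gene's probe sets, no trend, a replicate block, each array left out and, chosen after seeing the data, signals floored at background.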

Additional observations from a re-analysis of the deposited data

How the results depend on the processing

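The number of genes called higher, 5 of 32, was 2 with arrays centred on their medians (Fasn, Scap and Acaca lost) and 3 without an intensity trend, where Scap and Acaca were lost; the number called lower was then 23 and 15, with Sqle, Idi1, Dhcr7 and Acss2 lost without the trend. With the mean of probe sets 5 were higher and 17 lower, since Scap, Acaca, Acss2 and Mvd were lost and Scd2 and Fads1 gained. Leaving out 1 array gave 4 to 5 genes higher, 18 to 19 lower and 37 to 43 probe sets called. The cholesterol median was -0.69 with centring and -0.50 to -0.43 with 1 array left out, and relative to all genes it was -0.50 here and -0.61 with either other scaling. The fatty acid median was -0.044 as deposited, -0.24 with centring, 0.14 with the mean of probe sets and -0.01 to 0.02 with 1 array left out. The regulator median was -0.055 with centring, -0.057 with the mean of probe sets and 0.04 to 0.20 with 1 array left out.

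No called gene changed direction in any alternative. Signs of uncalled genes turned as follows. As deposited, Acly was -0.076 and Fads1 -0.012. With centring, Hsd17b7 was -0.068, Acly -0.27, Scd2 -0.14, Fads1 -0.21 and Insig2 -0.055. With the mean of probe sets, Acly was -0.20, Elovl6 0.037 and Insig2 -0.075. With 1 array left out, Scd2 ranged from -0.039 (without knockdown A, and below 0 also without wild type A) to 0.067, Fads1 from -0.012 (without knockdown A) to 0.11, and Acly from -0.031 (without knockdown B, and below 0 also without knockdown C or wild type C) to 0.081.

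With the replicate block, 5 genes were higher and 20 lower, Msmo1 being added at -0.23 (adjusted p 0.0444). Samples of the same letter did not deviate together (correlations -0.04, -0.02 and -0.01 for A, B and C), so the letters were not taken as pairs. The causes of these differences were not tested.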
